A study of Mus musculus with 10 samples.

Results

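The genes described here are 10 mouse genes that hold back MAP kinase signalling, namely the dual specificity phosphatase genes Dusp1, Dusp2, Dusp4, Dusp5 and Dusp6, the Sprouty genes Spry1, Spry2 and Spry4, and the Sprouty-related genes Spred1 and Spred2. They were taken by gene symbol from the array's annotation, out of 18194 named genes, and have 25 of the 45101 probe sets. Each gene is represented by its probe set with the highest mean over the 10 samples. The genes were chosen with the difference between the groups in view, so their own differences are given as a description and support nothing. Labelled RNA of fully grown mouse oocytes, which rest at the germinal vesicle stage of meiosis, was measured on 1 array per sample. There were 4 samples from non-transgenic mice (replicates 1, 2, 7 and 8) and 6 from mice carrying a transgene that makes RNA interference against basonuclin, a zinc finger protein, in oocytes alone (replicates 4, 5, 6, 11, 12 and 13). Per the labels each sample held RNA of 50 oocytes from 1 mouse. The strain, the age and the promoter of the transgene are not stated in the labels used.

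MAP kinase cascades carry signals from receptors at the cell surface through RAS, RAF and MEK to the kinase ERK, which changes transcription. ERK activity in turn induces genes of its own inhibitors: Sprouty and SPRED proteins act near RAS and RAF, and dual specificity phosphatases take phosphate off the MAP kinases themselves. Related cascades end in the kinases p38, JNK and ERK5. In mouse oocytes the kinase MOS drives MEK and ERK during meiotic maturation, and the receptor KIT receives a growth signal from the granulosa cells around the oocyte.

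The arrays were alike in scale, with a median intensity between 17.46 and 20.08, and the correlation of log2 values within a group was at least 0.978. Bnc1, the targeted basonuclin gene, averaged log2 11.57 ± 0.15 (SD, n = 4) without the transgene and 3.85 ± 0.21 (SD, n = 6) with it, and every sample matched its label. All 11 oocyte markers examined, among them Nlrp5, Oosp1 and Zp3, were above log2 5 on every array, and 1 of them, Figla, was called lower (9.17 and 8.62). All 7 markers of expanding cumulus cells that the array named, such as Has2 and Ptgs2, were below log2 5 on every array. Among 13 markers of granulosa and cumulus cells 5 were below it on every array, including Amh at 1.68 and 1.64, 2 of 7 tested genes (Cyp11a1 and Fshr) were higher, and the summed intensity of the list ran from 1744 to 1945 in non-transgenic and from 1672 to 2759 in transgenic samples. The summed intensity of 11 markers of stroma and vessels ran from 605.2 to 705.7 in non-transgenic and from 783.4 to 1051 in transgenic samples without overlap, with 4 of 6 tested genes higher and 1 lower, while Col1a2, Col3a1, Pecam1 and Cdh5 were below log2 5 on every array. Of 9 blood and immune markers 6 were below it on every array, Ptprc and Cd74 among them, Laptm5 was higher by 1.06 and Srgn was lower (11.27 and 10.71), and the sums overlapped, from 3419 to 4261 and from 2817 to 4479. The part of such cells in the results that follow was not tested. In whole-oocyte RNA, fewer cells with a transcript and less of it per cell cannot be told apart.

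Among the feedback inhibitors, the phosphatase genes Dusp1 and Dusp6 stood far higher in basonuclin-deficient oocytes, Spry1 was moderately higher and Spred1 was lower. The brightest probe sets of Spry4 and Spred2 gave near-equal means, and Dusp2, Dusp4, Dusp5 and Spry2 stayed dim. A gene was tested where a probe set was above log2 5, an intensity of 32, on at least 4 arrays, which 6 of the 10 genes met. Dusp6 met it only through the transgenic samples. In the limma fit across 10590 genes, with the Benjamini-Hochberg adjusted p-value below 0.05, 4 of these 6 were called, 3 higher and 1 lower. The same fit called 37.2% of all tested genes, 18.9% higher and 18.3% lower. The groups did not overlap for 3 of the 6 (Dusp1, Dusp6 and Spred1), as for 28.0% of all tested genes, 14.8% with the transgenic samples higher and 13.1% lower. Because the genes were chosen on this contrast, nothing is read from these counts.

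**Figure D1:**
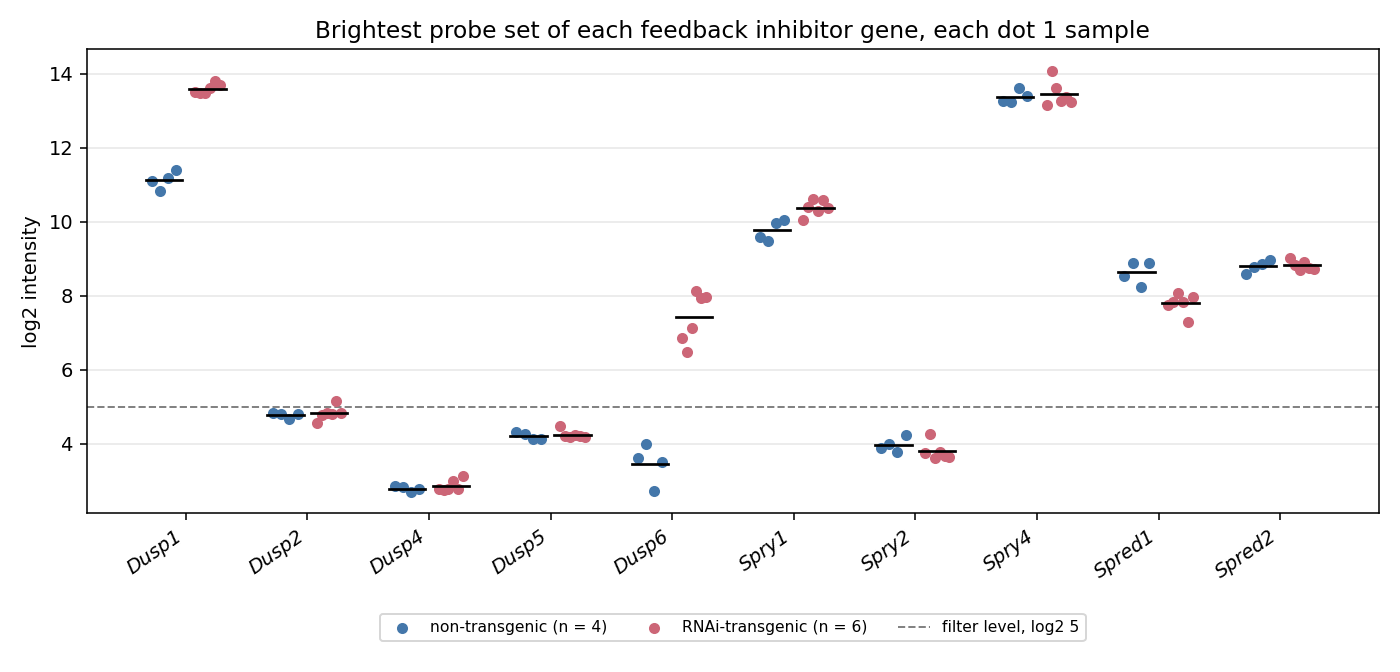
Log2 intensity of the brightest probe set of each of the 10 genes (vertical axis), each dot 1 sample and each bar a group mean, with the filter level of log2 5 dashed. For Dusp1 and Dusp6 every transgenic sample lies above every non-transgenic sample, for Spred1 every transgenic sample lies below, and Dusp2, Dusp4, Dusp5 and Spry2 lie near or under the dashed line.

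Dusp1 encodes a nuclear phosphatase that acts on p38, JNK and ERK and is induced early after growth factors or stress. Its single probe set (1448830_at) was at log2 11.10, 10.83, 11.19 and 11.40 in non-transgenic replicates 1, 2, 7 and 8, and in transgenic samples it ran from 13.47 over a median of 13.56 to 13.80. All transgenic samples were thus more than 2 log2 units above the highest non-transgenic sample. The means were 11.13 ± 0.24 (SD, n = 4) and 13.60 ± 0.13 (SD, n = 6), a difference of 2.47 (SE 0.11), or 5.52-fold. Within replicates 1 to 6 the difference was 2.52 and within replicates 7 to 13 it was 2.41.

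Dusp6 encodes a cytoplasmic phosphatase that prefers ERK and whose transcript is widely read as a marker of ERK activity. In non-transgenic replicates 1, 2, 7 and 8 its single probe set (1415834_at) was at log2 3.61, 3.99, 2.72 and 3.49, all below the filter level. In transgenic samples it ran from 6.47 over a median of 7.53 to 8.11, all above it. Since the non-transgenic values have only an upper bound, the transcript is given as at least 5.32-fold higher, with a transgenic mean of 7.41 ± 0.68 (SD, n = 6). The transgenic samples were not alike. Replicates 4, 5 and 6 were at 6.87, 6.47 and 7.13, and replicates 11, 12 and 13 at 8.11, 7.93 and 7.95, so that these ranges of replicate numbers differed by 1.18 without overlap. For Dusp1 replicates 11 to 13 were also above replicates 4 to 6, by 0.22. Of all tested genes 6.87% were higher in replicates 11 to 13 without overlap. No label calls these ranges batches, and whether they are was not tested.

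Dusp2, Dusp4 and Dusp5 were at or below the filter level. Dusp2, an inducible nuclear phosphatase known from immune cells, lay between 4.68 and 4.83 in non-transgenic and between 4.55 and 5.16 in transgenic samples. Dusp4, a nuclear phosphatase related to Dusp1, lay between 2.69 and 2.85 and between 2.75 and 3.12. Dusp5, a nuclear phosphatase specific for ERK, lay between 4.12 and 4.31 and between 4.19 and 4.48. The groups overlapped for each, and none of these genes was tested. Transgenic replicate 12 was the only sample above the level, for Dusp2.

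Among the Sprouty genes, whose products block receptor signalling upstream of RAF, Spry1 was above the filter level on every array (1415874_at). It was at log2 9.58, 9.49, 9.97 and 10.06 in non-transgenic replicates 1, 2, 7 and 8, and ran from 10.05 over a median of 10.38 to 10.60 in transgenic samples. The groups met only at the edge, where transgenic replicate 4 was just under non-transgenic replicate 8. The means were 9.77 ± 0.29 (SD, n = 4) and 10.38 ± 0.21 (SD, n = 6), a difference of 0.61 (SE 0.14), or 1.53-fold. Within replicates 1 to 6 it was 0.82, and within replicates 7 to 13 it was 0.40, where the fit no longer called it (limma adjusted p = 0.0702).

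Spry4 has 4 probe sets above the filter level, and they differed in what they showed. The brightest (1445669_at) was at log2 13.26, 13.23, 13.60 and 13.40 in non-transgenic replicates 1, 2, 7 and 8 and ran from 13.16 over a median of 13.32 to 14.09 in transgenic samples, so the groups overlapped widely and the difference was 0.08 (SE 0.17). The next (1422021_at) was at 10.94, 11.36, 11.17 and 11.45 in non-transgenic samples and ran from 11.91 over a median of 12.13 to 12.54 in transgenic samples. Here the groups did not overlap, and the difference was 0.95 (SE 0.13). The dimmest (1422020_at) differed by 0.66 with overlap, from 6.10 ± 0.43 (SD, n = 4) to 6.75 ± 0.26 (SD, n = 6). The other one (1440867_at) differed by 0.93 within replicates 1 to 6 and by -0.38 within replicates 7 to 13. For the brightest the same values were 0.37 and -0.21, while the 2 probe sets with larger differences were higher in transgenic samples within either range. When the probe sets of a gene were averaged, Spry4 was called higher, by 0.49 (limma adjusted p = 0.0123). Which part of the Spry4 transcript each probe set reads is not stated in the labels used. Spry2 had 2 probe sets, all below the filter level on every array. The brighter of them lay between 3.77 and 4.23 in non-transgenic and between 3.60 and 4.27 in transgenic samples.

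SPRED proteins bind the RAS inhibitor neurofibromin and bring it to the membrane. Spred1 was the member that was lower in basonuclin-deficient oocytes. Its brightest probe set (1423160_at) was at log2 8.54, 8.88, 8.24 and 8.88 in non-transgenic replicates 1, 2, 7 and 8, and ran from 7.28 over a median of 7.84 to 8.08 in transgenic samples. The lowest non-transgenic sample was above the highest transgenic one. The means were 8.64 ± 0.31 (SD, n = 4) and 7.79 ± 0.28 (SD, n = 6), a difference of -0.84 (SE 0.17), or 1.79-fold lower. The other Spred1 probe sets above the level differed the same way, by -1.23 without overlap (1423161_s_at) and by -0.59 with overlap (1423162_s_at), and 5 more were below log2 5 on every array. Within replicates 1 to 6 the brightest differed by -0.82 and within replicates 7 to 13 by -0.87, where the fit no longer called it (limma adjusted p = 0.0806).

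Its relative Spred2 gave near-equal levels. The brightest probe set (1434403_at) was at log2 8.57, 8.78, 8.86 and 8.98 in non-transgenic replicates 1, 2, 7 and 8 and ran from 8.70 over a median of 8.79 to 9.005 in transgenic samples, a difference of 0.02 (SE 0.10). A dimmer one (1436892_at) was at 7.67 ± 0.38 (SD, n = 4) and 7.42 ± 0.23 (SD, n = 6), with overlap. With each probe set tested by itself, 8 of the 12 probe sets of these genes that passed the filter were called, 5 higher and 3 lower, where the fit called 33.2% of all probe sets.

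**Figure D2:**
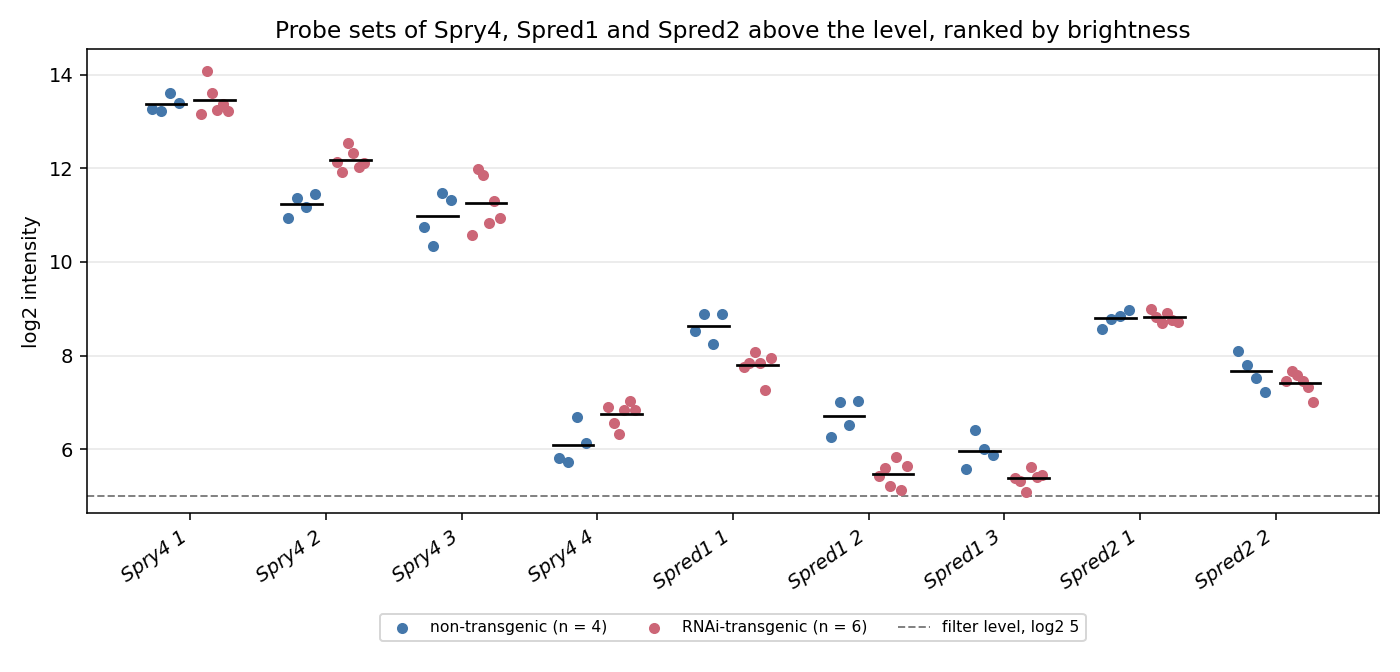
Log2 intensity (vertical axis) of the probe sets of Spry4, Spred1 and Spred2 that passed the filter, numbered by brightness within each gene, each dot 1 sample and each bar a group mean. The first Spry4 probe set shows overlapping groups and the second shows none, while all 3 of Spred1 have a lower transgenic mean.

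The 3' to 5' difference of the control probe sets, a sign of RNA length, ran from 3.72 to 4.34 log2 units for Gapdh in non-transgenic and from 3.63 to 4.12 in transgenic samples. For Actb it ran from 3.44 to 4.01 and from 3.40 to 5.13, with transgenic replicate 6 highest. With the Gapdh difference as a covariate the members differed by 2.56 (Dusp1), 3.85 (Dusp6), 0.79 (Spry1) and -0.73 (Spred1), and with the Actb difference by 2.49, 3.98, 0.60 and -0.91. Dusp1, Spry1 and Spred1 kept their calls. Dusp6 was called as well, but its non-transgenic values lie below the filter level, so the size of its difference is not fixed and its call supports nothing.

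The letters just before the start of each called gene are shown for the 4 genes that the fit called, since their transcripts are those that differed. RefSeq's promoter table for GRCm38.p6 held 8 of the 10 genes. The window is the 250 bases before the annotated start, 5′ to 3′ on the gene's strand. Motifs were searched on both strands: the cyclic AMP response element TGACGTCA, the AP-1 site TGANTCA and an extended ETS site, CCGGAA. The serum response CArG box, the E-box CACGTG and the GC box GGGCGG were searched in the same way. The shorter ETS core GGAA was not searched. Capitals mark any match, and no matches overlap.
Dusp1: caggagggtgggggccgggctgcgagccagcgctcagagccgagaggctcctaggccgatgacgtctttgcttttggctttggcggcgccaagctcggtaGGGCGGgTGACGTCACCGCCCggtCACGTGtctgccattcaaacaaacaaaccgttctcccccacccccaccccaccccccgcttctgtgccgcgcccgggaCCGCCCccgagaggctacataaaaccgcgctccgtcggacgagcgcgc
Dusp6: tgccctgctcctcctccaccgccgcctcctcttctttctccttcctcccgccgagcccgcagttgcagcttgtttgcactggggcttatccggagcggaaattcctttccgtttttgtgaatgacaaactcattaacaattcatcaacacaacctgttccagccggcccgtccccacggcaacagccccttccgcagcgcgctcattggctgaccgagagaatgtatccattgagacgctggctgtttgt
Spry1: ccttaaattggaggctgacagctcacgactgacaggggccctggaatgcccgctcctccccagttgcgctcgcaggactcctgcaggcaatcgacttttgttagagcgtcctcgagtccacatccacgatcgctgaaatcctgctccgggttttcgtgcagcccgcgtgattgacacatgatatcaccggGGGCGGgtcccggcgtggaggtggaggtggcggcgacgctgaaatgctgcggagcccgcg
Spred1: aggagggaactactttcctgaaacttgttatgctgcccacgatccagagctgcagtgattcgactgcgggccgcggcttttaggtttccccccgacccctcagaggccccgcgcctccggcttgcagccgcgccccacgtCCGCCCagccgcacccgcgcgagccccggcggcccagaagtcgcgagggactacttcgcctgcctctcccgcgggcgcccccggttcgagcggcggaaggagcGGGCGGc
These windows lie at chr17:26508473-26508722 on the minus strand for Dusp1, chr10:99262981-99263230 on the plus strand for Dusp6, chr3:37639697-37639946 on the plus strand for Spry1 and chr2:117120821-117121070 on the plus strand for Spred1. Dusp1 alone of the 8 genes held the cyclic AMP response element, which 1.55% of the 32851 windows in the table hold. It begins 143 bases before the start, with a GC box on either side and an E-box nearby, and an E-box is in 6.02% of windows. The window of Dusp6 held no match to any of these motifs. The CArG box, in 1.47% of windows, was found in the untested Dusp5, and 6 of the 8 genes held a GC box, which 32.7% of windows hold. The windows of these 8 genes were 56.0% to 70.8% G and C, beside a median of 52.4% over all windows. The part of this content in the GC box share was not tested. None held the AP-1 site or the extended ETS site CCGGAA, which are in 6.75% and 12.0% of windows. A match is a match of letters and does not show binding.

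The rest of the pathway was followed with lists of other genes, to place the inhibitors beside the signals they hold back. Of 146 listed genes 91 were tested, 42 were too dim and 13 were not matched to a probe set of their own. Of the 91, 19 were higher, 12 were lower and 60 did not pass in limma, with a median difference of 0.03, against -0.03 over all tested genes. Of all tested genes 18.9% were higher and 18.3% lower. The higher count includes Fos, Etv5, Ier2 and Map2k6, which needed the transgenic samples to pass the filter, so nothing is read from it. The lists were written with earlier results of these data known.

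The list for ERK responsive transcription held genes induced by ERK activity, and also the ternary complex factor genes Elk1, Elk3 and Elk4 and their partner Srf. From this mixed list Fos, Etv5, Ier2, Phlda1, Elk3 and Elk4 were called higher. Of 11 tested, 6 were thus higher and 0 lower in limma, beside 18.9% and 18.3% of all tested genes, with a list median of 0.55. At an unadjusted p below 0.05 it was 8 and 0, and the share of all tested genes at that threshold was not worked out. Fos, part of the AP-1 transcription factor, was at log2 6.18, 4.89, 4.20 and 4.05 in non-transgenic replicates 1, 2, 7 and 8 and between 8.21 and 9.23 in transgenic samples. Only non-transgenic replicate 1 exceeded the filter level, and the transcript was at least 10.2-fold higher (limma adjusted p = 1.53e-05). Etv5, an ETS factor induced by FGF signalling, was below the level in every non-transgenic sample, between 3.84 and 4.26, and between 6.30 and 7.07 in transgenic samples, at least 3.22-fold higher. It passed the filter only through the transgenic samples, so its call supports nothing, and Dusp6 is of the same kind. Of 144 tested genes that no non-transgenic sample had above the level, 136 were called higher. Fos and Ier2, each above the level in 1 non-transgenic sample, also needed the transgenic samples to pass the filter. Their calls support nothing either, and nothing is read from the count of this list, which includes these genes.

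Ier2, an immediate early gene, exceeded the level in non-transgenic replicate 7 alone of its group and was at least 2.02-fold higher. Phlda1 rose by 1.16 (SE 0.20) to 8.55, and the ternary complex factor genes Elk3 and Elk4 rose by 1.62 and 0.55. Another Elk4 probe set went the other way, from 8.54 to 7.14, so the direction of Elk4 depends on the probe set. Elk3 was widely spread in non-transgenic oocytes, from 6.38 to 8.36, and its difference was 2.28 within replicates 1 to 6 and 0.96 within replicates 7 to 13. Egr1, an early growth response factor, did not pass, at 8.62 ± 0.51 (SD, n = 4) and 9.17 ± 0.35 (SD, n = 6). It differed by 1.24 within replicates 1 to 6, where it passed (limma adjusted p = 0.0173), and by -0.13 within replicates 7 to 13. Without non-transgenic replicate 8, or with the Gapdh 3' to 5' difference as a covariate, it passed as well (limma adjusted p = 0.0434 and 0.0410). Srf, which pairs with the ternary complex factors, was at 7.98 and 8.01. Etv4, the relative of Etv5, and Jun, Junb, Fosb, Myc and Ier3 were below log2 5 on every array.

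**Figure D3:**
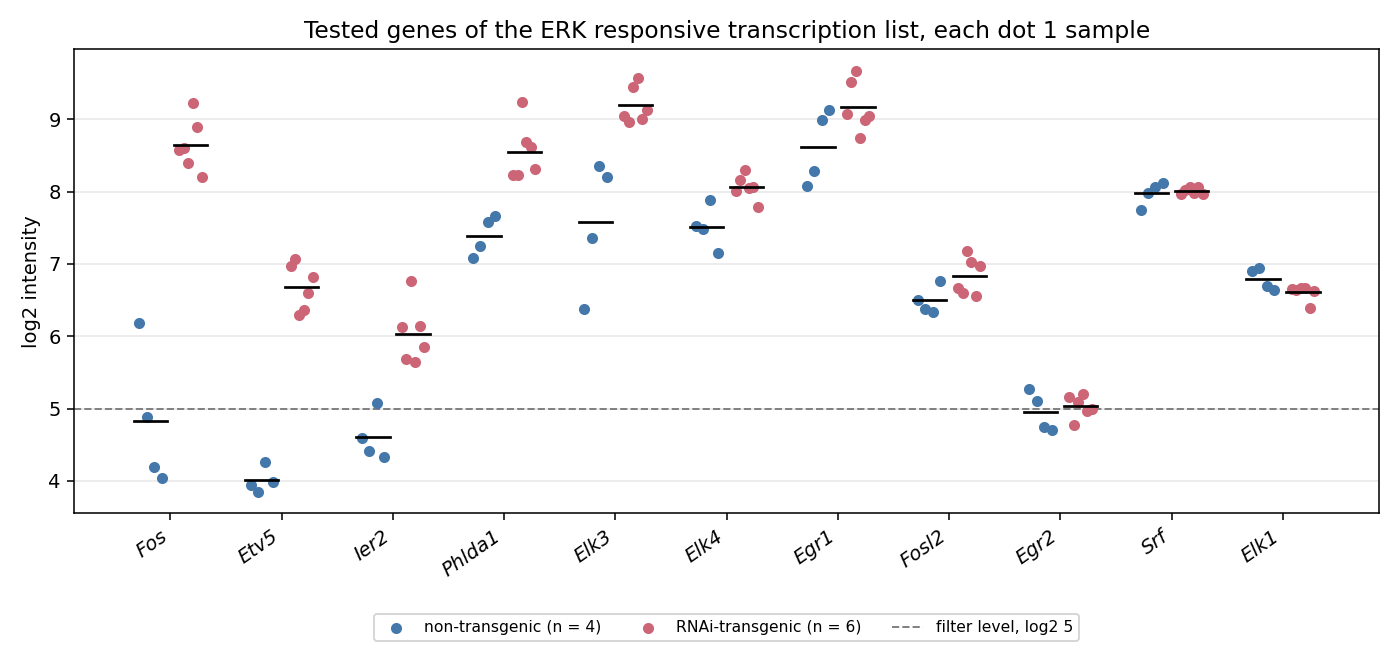
Log2 intensity (vertical axis) of the 11 tested genes of the ERK responsive transcription list, each dot 1 sample and each bar a group mean, with the filter level of log2 5 dashed. Fos, Etv5, Ier2, Phlda1 and Elk3 have every transgenic sample above every non-transgenic sample, whereas the groups overlap for Egr1 and Srf.

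Between receptor and ERK, the brightest probe sets showed small differences. Of 14 tested genes of the RAS, RAF, MEK and ERK list, 0 rose and 1 fell in limma, beside 18.9% and 18.3% of all tested genes. At an unadjusted p below 0.05 it was 2 and 1, and the share of all tested genes there was not worked out. The differences of the brightest probe sets lay between -0.34 and 0.25. Other probe sets showed more: tested by themselves, they were called for Nras, a RAS gene, as lower (8.73 and 8.12, against 8.68 and 8.49 for the one used), for Mknk1, a kinase downstream of ERK, as lower (7.35 and 6.99) and for the RAF gene Araf as higher (6.04 and 6.84). Map2k2, which encodes a MEK, fell by 0.34 (limma adjusted p = 0.0265), and was no longer called when non-transgenic replicate 2, 7 or 8 or transgenic replicate 13 was left out (limma adjusted p from 0.0538 to 0.0803). A second probe set was at 6.17 and 6.16. Its partner Map2k1 was at 11.53 and 11.78 (limma adjusted p = 0.0539) and passed as higher under several alternatives, among them without non-transgenic replicate 7 (limma adjusted p = 0.0206) or transgenic replicate 6 (limma adjusted p = 0.0306). Mos was at 14.00 ± 0.09 (SD, n = 4) and 14.16 ± 0.12 (SD, n = 6) and did not pass (limma adjusted p = 0.0855), though it did without transgenic replicate 6 (limma adjusted p = 0.0321) or with the Actb difference as a covariate (limma adjusted p = 0.0414). Rras2, a RAS relative, was at 11.71 and 11.90, and passed only within replicates 1 to 6 and without non-transgenic replicate 7.

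Upstream, 4 of 18 tested receptor and adaptor genes rose, 1 fell and 13 did not pass, beside 18.9% and 18.3% of all tested genes. The list median was -0.02. Kit was at log2 11.87, 11.57, 12.08 and 11.93 in non-transgenic replicates 1, 2, 7 and 8 and between 12.51 and 12.78 in transgenic samples, without overlap. Fgfr2, a receptor for fibroblast growth factors, rose by 0.51 (limma adjusted p = 0.00134), and the adaptor gene Shc1 changed by -0.45 (limma adjusted p = 0.00340). The epidermal growth factor receptor gene Egfr and the insulin receptor gene Insr rose by 0.56 and 0.47. Another Egfr probe set was at 7.75 and 7.74, and with the probe sets averaged Egfr was not called (0.37, limma adjusted p = 0.0845). Egfr was no longer called when non-transgenic replicate 2 or 8 or transgenic replicate 12 or 13 was left out, nor Insr when non-transgenic replicate 2, 7 or 8 or transgenic replicate 4, 6, 11 or 13 was, with limma adjusted p up to 0.107. Ptpn11, a phosphatase that relays receptor signals, was at 12.20 and 11.98 and did not pass, though it did without transgenic replicate 12 or 13 (limma adjusted p = 0.0338 and 0.0343) or with the replicate number range as a covariate (limma adjusted p = 0.0473).

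Among 11 tested ligand genes 2 rose and 1 fell, beside 18.9% and 18.3% of all tested genes, with a list median of 0.11. Tgfa, a ligand of the epidermal growth factor receptor, rose by 0.70 with a dimmer probe set at 5.45 and 5.51, Fgf9 rose by 0.61 and Egf fell by 0.86. Egf lay between 8.22 and 8.76 in non-transgenic and between 7.40 and 7.91 in transgenic oocytes, without overlap. Fgf8, which oocytes are known to send to cumulus cells, was at 9.80 and 9.56 and did not pass.

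Other brakes on the pathway were called in both directions, as were all tested genes. Of 11 tested inhibitors of receptor or RAS signalling, 3 rose and 1 fell, beside 18.9% and 18.3% of all tested genes. The list median was 0.14, and nothing is read from these counts. Il17rd, a membrane inhibitor of FGF signalling, was at log2 10.59, 10.95, 10.68 and 10.50 in non-transgenic replicates 1, 2, 7 and 8 and between 9.31 and 9.93 in transgenic samples. It fell by 1.08 (SE 0.15, limma adjusted p = 0.000183), but its dimmer probe set was at 6.81 and 6.90. The ubiquitin ligase gene Cbl rose by 0.81, with a dimmer probe set at 5.27 and 4.87. The RAS GTPase activator gene Rasal1 rose by 0.60 and the receptor inhibitor gene Lrig1 by 0.30. Neither was called within replicates 1 to 6 (limma adjusted p = 0.0603 and 0.178). Dimmer Lrig1 probe sets were at 10.59 and 10.80 and at 6.72 and 6.60. With the probe sets averaged Lrig1 was not called (0.13, limma adjusted p = 0.125). Pebp1, which binds RAF, and Rasa2 were among the genes that did not pass, at 13.74 and 13.89 and at 12.54 and 12.69. Spry3 and Spred3, the remaining relatives of the Sprouty and SPRED genes, were below log2 5 on every array.

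Of 11 further tested genes of dual specificity and MAP kinase phosphatases, 1 rose, 4 fell and 6 did not pass. The list median was -0.37, and of all tested genes 18.9% were higher and 18.3% lower. Dusp14 was at log2 10.48, 10.49, 11.15 and 10.92 in non-transgenic replicates 1, 2, 7 and 8 and between 11.32 and 11.83 in transgenic samples, and rose by 0.80 (SE 0.15). Dusp7, which like Dusp6 prefers ERK, was called lower, at 11.70 ± 0.27 (SD, n = 4) and 11.15 ± 0.26 (SD, n = 6), with overlap. Its dimmer probe sets were at 10.91 and 10.41 and at 6.64 and 6.56, and neither was called by itself. With the probe sets averaged Dusp7 was not called (-0.38, limma adjusted p = 0.0764). Nor was it called within replicates 1 to 6 or 7 to 13 (limma adjusted p = 0.126 and 0.0785). Dusp16, a phosphatase of JNK and p38, changed by -0.39, Dusp19 by -0.45 and Dusp22 by -0.46. Dusp22 was no longer called when non-transgenic replicate 1 or 2 or transgenic replicate 5, 6, 12 or 13 was left out (limma adjusted p from 0.0501 to 0.0817). Dusp12 was at 11.55 and 11.21 and passed as lower only without transgenic replicate 13 or with the replicate number range as a covariate (limma adjusted p = 0.0375 and 0.0279). A dimmer Dusp12 probe set was higher, at 5.64 and 6.23.

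Of 15 tested kinases of the p38, JNK and ERK5 branches, 3 rose, 4 fell and 8 did not pass. The list median was -0.13, and of all tested genes 18.9% were higher and 18.3% lower. Mapk7, which encodes ERK5, was at log2 5.44, 6.13, 6.10 and 6.18 in non-transgenic replicates 1, 2, 7 and 8 and between 8.10 and 8.55 in transgenic samples, a rise of 2.36 (SE 0.15, limma adjusted p = 5.84e-07). Map2k6, a kinase that activates p38, exceeded the filter level in non-transgenic replicates 1 and 7 only of its group. It lay between 7.30 and 7.60 in transgenic samples, at least 4.93-fold higher (limma adjusted p = 1.35e-06). Map2k6 too needed the transgenic samples to pass the filter, so its call supports nothing, and nothing is read from the count that includes it. The p38 genes themselves were split: Mapk13 rose by 0.51 and Mapk14 fell by 0.52, while dimmer Mapk14 probe sets differed by -0.03 and -0.05. The upstream kinase genes Map3k5 and Map3k4 fell by 0.83 and 0.62, and Mapkapk5, a kinase downstream of p38, fell by 0.35. Mapk8, which encodes a JNK, and its activator Map2k4 were at 12.35 and 12.38 and at 11.12 and 11.09. A dimmer Map2k4 probe set was lower, at 10.03 and 9.59.

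**Figure D4:**
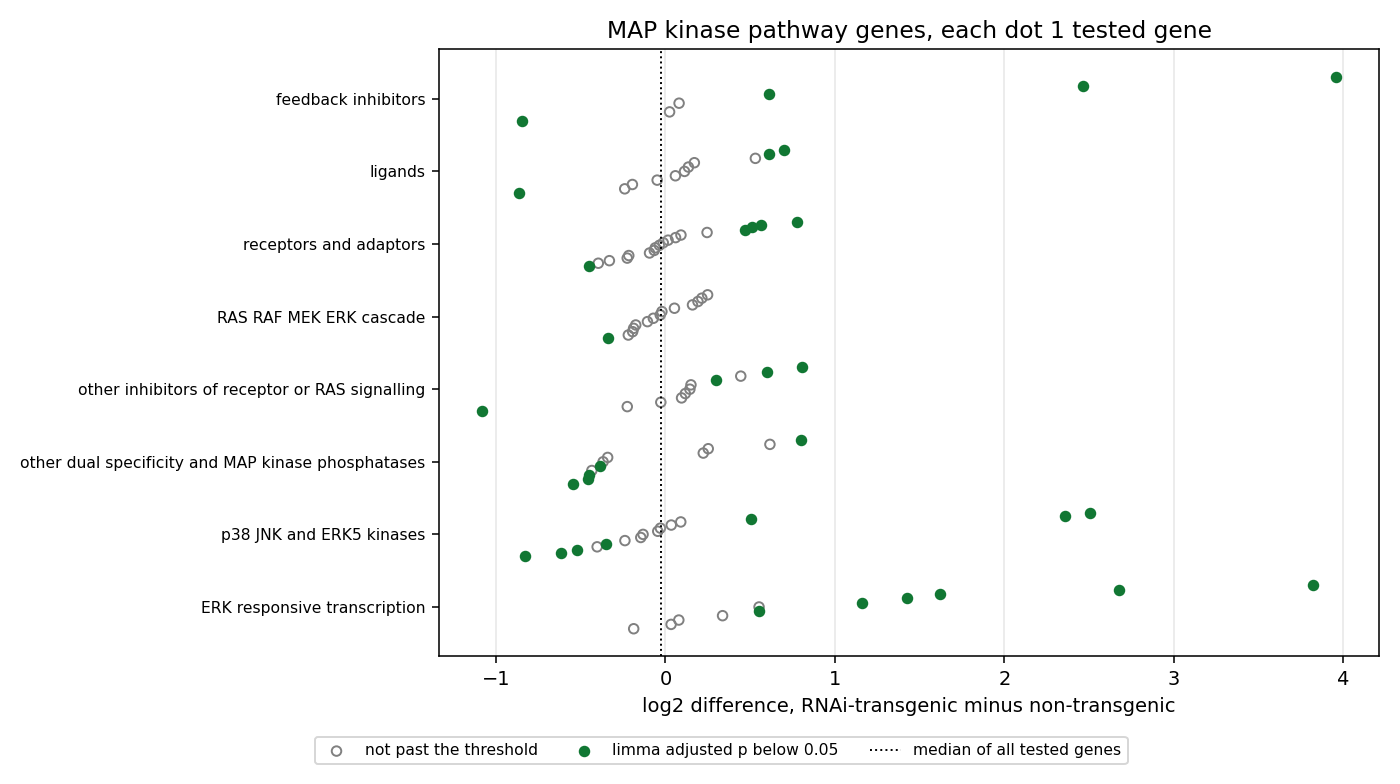
Log2 difference between the groups (horizontal axis, transgenic minus non-transgenic) for the 6 tested feedback inhibitors and the tested genes of 7 pathway lists, each dot 1 gene, filled where the limma adjusted p was below 0.05, with the median of all tested genes dotted. Fos, Dusp6, Etv5, Map2k6, Dusp1 and Mapk7 are plotted above 2, whereas the brightest probe sets of the RAS, RAF, MEK and ERK list stay between -0.34 and 0.25. For Fos, Dusp6, Etv5 and Map2k6 the plotted difference uses non-transgenic values below the filter level as measured, so its size is not fixed.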

How the data were processed

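Labelled RNA of 10 oocyte samples was hybridised to 1 array each. The deposited values are intensity per probe set on a linear scale, made by the authors with GCRMA per the submitters' processing notes, and the scale was read from the values. Background correction and normalization by GCRMA can compress dim probe sets, and the number of arrays limits the precision. Here log2 of the deposited intensity was taken. Probe sets with 1 gene symbol in the platform annotation were kept (34958 of 45101), with the brightest per gene. Genes above log2 5 on at least 4 arrays (10590) were fitted with limma 3.58.1 in R 4.3.3 (lmFit, eBayes with trend, Benjamini-Hochberg adjustment over all tested genes, threshold 0.05), with no covariate. The procedure was tested on simulated data. Samples came from separate mice, per the labels, and were grouped by transgene.

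The members and lists were chosen with earlier results of these data known. Named were all members, Bnc1, up to 4 higher and 4 lower genes per pathway list by adjusted p, the 2 brightest per list, the 3 brightest markers per list, the 3 genes most like the brightest member, and Kit, Mos, Map2k1, Map2k2, Etv4, Etv5, Egr1 and Fos, with some items of the rule not reported here. Other genes and probe sets were named after their values were seen. Alternatives covered the filter, scaling, pseudocount, eBayes settings, array weights, covariates, replicate ranges, left-out samples, probe set rules and thresholds.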

Additional observations from a re-analysis of the deposited data

Results flagged for a closer look

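Of 114 groups of values examined, 7 held a sample far from the others of its group, and chance gives about 1 in 20. Dusp5 in transgenic replicate 4 was at log2 4.48, with the others between 4.19 and 4.22, and Spry2 in transgenic replicate 5 was at 4.27, with the others between 3.60 and 3.78, both below the filter level. Fgf9 in transgenic replicate 13 was at 9.59, with the others between 10.13 and 10.35. In non-transgenic replicate 1, Insr was at 6.52 (others 5.85 to 5.95), Map2k2 at 8.66 (others 9.11 to 9.15) and Mapk7 at 5.44 (others 6.10 to 6.18). Pebp1 in non-transgenic replicate 2 was at 13.64, with the others between 13.77 and 13.79.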

How the results depend on the processing

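Dusp1, Dusp6 and Spred2 kept their direction of call or lack of one in all 24 alternatives each, and Spry1, Spry4 and Spred1 in 23. Dusp6 passed the filter only through the transgenic samples, so its kept call supports nothing. Of 30 named pathway genes called, 13 kept the call throughout. Fos, Etv5, Ier2 and Map2k6 are among these 13 and among the higher pathway genes counted below. They needed the transgenic samples to pass the filter, so their kept calls support nothing. With replicates 1 to 6 alone, 1207 tested genes were higher and 706 lower, and 3 pathway genes were lower. With replicates 7 to 13 alone, it was 1241 and 1023, with 6 pathway genes and 0 members lower. With each probe set by itself 19 pathway calls were lower. At an adjusted p below 0.01, 1102 tested genes were lower. At an adjusted p below 0.05 together with at least a 2-fold difference, 702 tested genes were higher and 249 lower. There, 7 pathway genes were higher and 1 lower, and 0 members were lower. These compare with 1998 and 1942 tested genes and 19 and 12 pathway genes. The cause was not tested, beyond the fewer samples in the replicate ranges and the stricter thresholds. Leaving out 1 sample gave 17 to 20 pathway genes higher and 11 to 15 lower. No paired analysis was possible because the groups share no replicate number. Dim probe sets limit Dusp2, Dusp4, Dusp5 and Spry2.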

Other observations

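Over the 10 samples, the tested genes whose log2 values followed the brightest Spry4 probe set most closely were Sav1 (Pearson r = 0.86), Pmpcb (r = 0.83) and Dcst2 (r = 0.83), given as a description over samples that share both groups.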
